A study of Mus musculus with 3 samples.

Results

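The chromatin of 5 T-box genes, Tbx1, Tbx2, Tbx3, Tbx4 and Tbx5, was examined in mouse primordial germ cells, from which eggs and sperm arise. Regions were taken by position: every called region of either mark that overlapped 1 of 3 windows on mouse genome build mm9. The windows were chr5:120090001-120360000 for Tbx3 and Tbx5 (270 kb), chr11:85620001-85750000 for Tbx2 and Tbx4 (130 kb) and chr16:18570001-18600000 for Tbx1 (30 kb). They held 46 of the 66659 called regions of the series, 27 of 47928 for H3K4me3 and 19 of 18731 for H3K27me3. The windows were chosen by the H3K27me3 extent and the H3K4me3 islands that these same lists show there, so the values below describe them and are not tested.

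Cells were purified by fluorescence from pooled gonadal regions at E11.5. Embryos came from a B6 line with an Oct4:GFP transgene, crossed to Swiss-Webster females, and the GFP-positive cells were kept, so the cells are those in which the Oct4 reporter was on. There were 2 cell aliquots (104000 and 97000 cells), and lysate of each was split evenly over the antibodies and an input control. The deposit gives 1 region list per mark, each standing for 2 replicates, with no read counts. The depth behind a region is therefore unknown and no value has a replicate error. The input was not analysed here, and markers of germ cells or of other cells were not examined, because genes could not be placed on mm9.

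T-box genes encode transcription factors that share a DNA-binding domain, the T-box, and pattern the early embryo. Tbx2 and Tbx3 are mainly repressors with roles in the heart, limb and mammary gland, Tbx5 acts in the forelimb and heart, Tbx4 in the hindlimb and lung, and Tbx1 in the pharyngeal arches and the outflow tract of the heart. Tbx2 with Tbx4 and Tbx3 with Tbx5 are neighbouring pairs that descend from a single ancestral pair, so that Tbx2 is the paralogue of Tbx3 and Tbx4 that of Tbx5. Trimethylation of lysine 4 of histone H3 (H3K4me3) is typical of CpG-rich and active promoters. Trimethylation of lysine 27 (H3K27me3) is deposited by Polycomb repressive complex 2 at silent developmental genes, and promoters that carry both are called bivalent. A called H3K4me3 region is named an island below.

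In the RefSeq order of GRCm38, Tbx3 follows Med13l and is followed by Tbx5 and then Rbm19. Tbx2 follows Bcas3 and is followed by Tbx4 and then Brip1, while Tbx1 lies between Gnb1l and Gp1bb. The 5 genes (gene IDs 21380, 21385, 21386, 21387 and 21388 for Tbx1 to Tbx5) span 9693 bp for Tbx1, 9334 bp for Tbx2, 14191 bp for Tbx3, 29731 bp for Tbx4 and 88707 bp for Tbx5. No coordinate of that assembly was carried over to mm9, so the regions below are placed in a window and are not assigned to a gene, exon or promoter within it.

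Promoter sequences from RefSeq (GRCm38.p6, 250 bases before to 50 after a start) were matched for 2 of the 5 genes, Tbx1 with 2 starts and Tbx4 with 1. They are shown because CpG dinucleotides, in capitals, are the sequence feature that H3K4me3 and Polycomb marks usually follow at promoters. They are written 5′ to 3′ and lie at chr16:18588850-18589149 and chr16:18590622-18590921 on the minus strand for Tbx1 and at chr11:85896515-85896814 on the plus strand for Tbx4. These positions are of GRCm38.p6 and cannot be compared with the mm9 positions elsewhere.
Tbx1 start 1: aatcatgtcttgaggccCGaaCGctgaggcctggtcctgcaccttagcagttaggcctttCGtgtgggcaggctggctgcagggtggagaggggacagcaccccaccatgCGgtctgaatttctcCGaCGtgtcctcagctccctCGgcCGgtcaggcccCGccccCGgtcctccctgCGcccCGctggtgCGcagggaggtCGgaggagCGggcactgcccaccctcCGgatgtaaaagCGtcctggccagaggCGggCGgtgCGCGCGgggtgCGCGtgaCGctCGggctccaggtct
Tbx1 start 2: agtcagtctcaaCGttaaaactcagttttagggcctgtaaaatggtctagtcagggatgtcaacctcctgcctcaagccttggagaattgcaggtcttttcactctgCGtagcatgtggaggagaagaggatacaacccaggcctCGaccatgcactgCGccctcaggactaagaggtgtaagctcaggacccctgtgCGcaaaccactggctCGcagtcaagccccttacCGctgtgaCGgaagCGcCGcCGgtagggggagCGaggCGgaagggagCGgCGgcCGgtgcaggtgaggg
Tbx4 start 1: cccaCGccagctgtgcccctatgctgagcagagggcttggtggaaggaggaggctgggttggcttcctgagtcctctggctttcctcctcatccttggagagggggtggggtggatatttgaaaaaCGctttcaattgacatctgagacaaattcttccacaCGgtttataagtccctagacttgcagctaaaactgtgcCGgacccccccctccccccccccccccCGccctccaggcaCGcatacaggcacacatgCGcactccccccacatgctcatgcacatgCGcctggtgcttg

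The Tbx1 promoters were richer in CpG than that of Tbx4. The first Tbx1 start held 26 CpG, an observed over expected ratio of 0.729, and 83.1% of the 32851 mouse promoters in the table held fewer. The second held 16 (ratio 0.633), and the Tbx4 start held 8 (ratio 0.314), against a median of 7 (ratio 0.384) over all promoters. Of 12 other T-box genes listed, 11 had promoters in the table, and their 13 starts held 1 to 26 CpG with a median of 7. The T-box half-site AGGTGTGA, searched on both strands, occurred in none of the 3 member promoters and in 1.28% of all promoters. The shorter core GGTGTG, which lies inside it, was also in none of the 3, and in 19.05% of all.

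The paralogous pairs carried the marks in different proportions: H3K27me3 far exceeded H3K4me3 at Tbx3-Tbx5, and the marks covered similar lengths at Tbx2-Tbx4. H3K27me3 covered 235.8 kb of the Tbx3-Tbx5 window, 87.3% of its length, and 27.4 kb of the Tbx2-Tbx4 window, 21.1% of its length, a 4.14-fold difference in share. H3K4me3 covered 6.0 kb (2.22%) of the Tbx3-Tbx5 window and 27 kb (20.8%) of the Tbx2-Tbx4 window, a share 9.35-fold higher in the latter. By share, the Tbx1 window lay between the pairs for H3K27me3, with 43.3% (13.0 kb), and above both for H3K4me3, with 27.3% (8.2 kb). By length this order does not hold, as the window is only 30 kb long and held the least H3K27me3. With windows widened by 50 kb on each side, the H3K27me3 share of the Tbx3-Tbx5 window was 6.63 times that of the Tbx2-Tbx4 window.

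**Figure D1:**
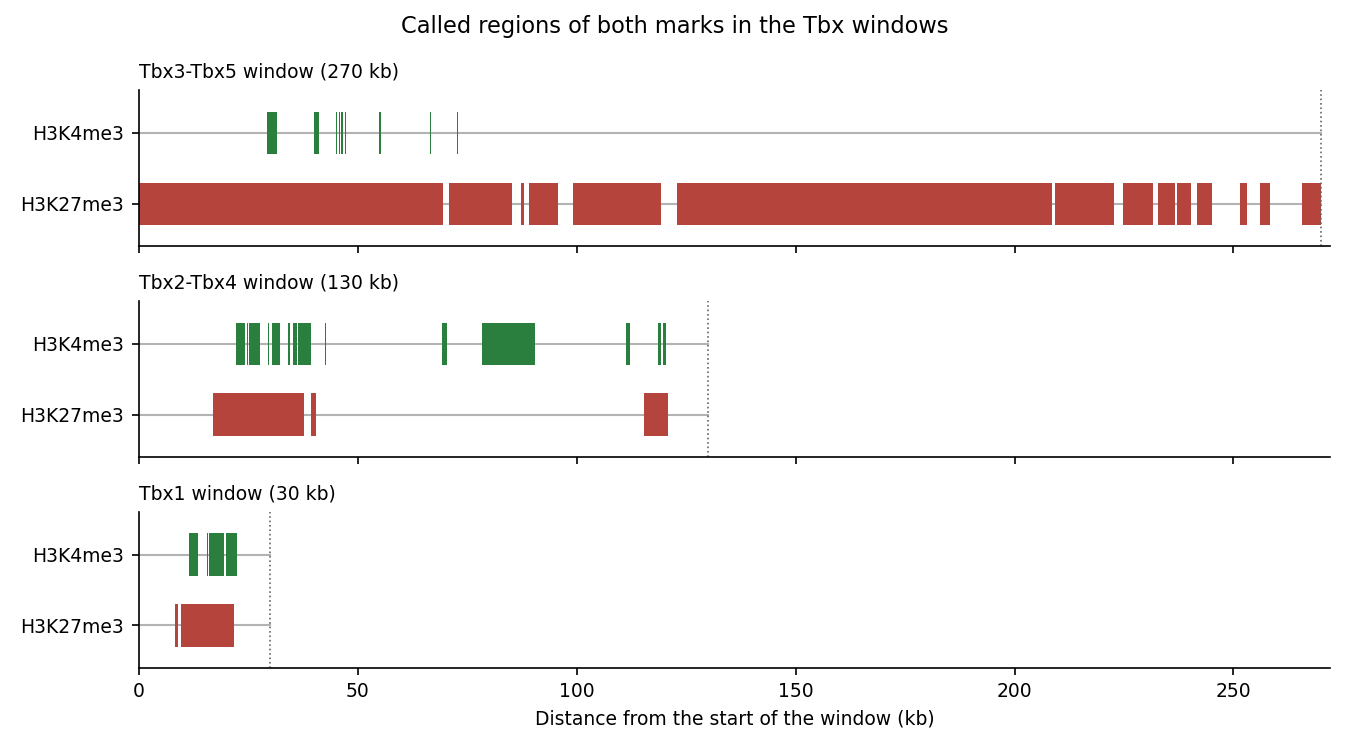
Called regions of H3K4me3 (green) and H3K27me3 (red) along the 3 windows, drawn to one scale by distance from the window start in kb; dotted lines mark the window ends, and regions are clipped there. The 9 islands of the Tbx3-Tbx5 window stop 72.8 kb from its start, while H3K27me3 runs on across most of the 270 kb.

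By count, most islands in each of the 3 windows overlapped H3K27me3. By length this did not hold at Tbx2-Tbx4, where 40.7% of the H3K4me3 lay on H3K27me3. All 9 islands of the Tbx3-Tbx5 window overlapped H3K27me3 by at least 1 bp, as did 10 of 14 in the Tbx2-Tbx4 window (71.4%, exact 95% binomial interval 41.9 to 91.6%, which covers counting error only and treats neighbouring islands as independent) and all 4 in the Tbx1 window. Over the whole list 18.8% of H3K4me3 regions did. Islands lying wholly inside an H3K27me3 region numbered 9, 9 and 3 in the same order, against 14.5% of the list. Since these overlaps were known when the windows were chosen, nothing is read from the counts. The marks were precipitated separately from a pool, so shared sequence leaves unknown whether a given cell or allele carried both.

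The pairs also differed in how much of the H3K27me3 sequence carried H3K4me3. Both marks lay on 6.0 kb of the Tbx3-Tbx5 window, which is all of its H3K4me3 and 2.54% of its H3K27me3. In the Tbx2-Tbx4 window they shared 11.0 kb, which is 40.7% of its H3K4me3 and 40.1% of its H3K27me3. In the Tbx1 window they shared 7.6 kb, 92.7% of its H3K4me3 and 58.5% of its H3K27me3. Over the whole lists the shared length was 13.8% of H3K27me3, so the Tbx3-Tbx5 window lay below that value and the others above it. Per 100 kb of H3K27me3 there were 3.82 overlapping islands in the Tbx3-Tbx5 window, 36.5 in the Tbx2-Tbx4 window and 30.8 in the Tbx1 window, against 14.4 over the list.

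**Figure D2:**
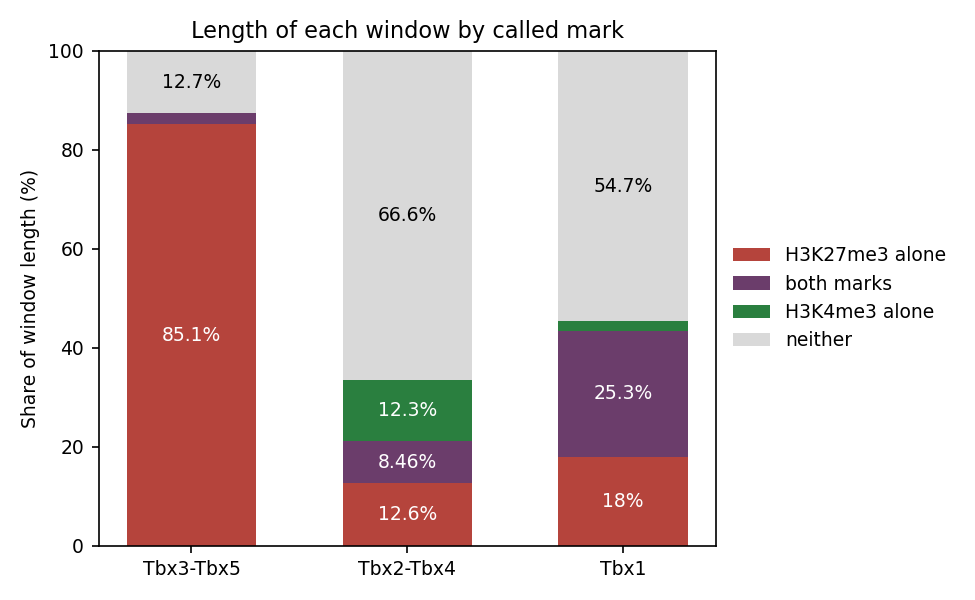
Share of each window's length, in percent, with H3K27me3 alone, both marks, H3K4me3 alone or neither. H3K27me3 alone fills 85.1% of the Tbx3-Tbx5 window, 12.6% of the Tbx2-Tbx4 window and 18.0% of the Tbx1 window, and H3K4me3 alone 0, 12.3 and 2.00%.

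The Tbx3-Tbx5 window consisted of 14 H3K27me3 regions, of which 2 overlapped an island (37.5% of all H3K27me3 regions did). The first, chr5:120085601-120159400, was 73.8 kb wide, ranked 16 in width in the list of 18731 and enclosed 8 of the 9 islands. It began 4.4 kb outside the window. The second, chr5:120160801-120175200, was 14.4 kb wide and enclosed the remaining island. The other 12 regions had no island.

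The islands of this window were small and confined to its first 72.8 kb. The widest, chr5:120119201-120121600, measured 2400 bp, and 89.7% of all H3K4me3 regions were narrower. The next, chr5:120130001-120131200, measured 1200 bp. The other 7 were of 200 or 400 bp, of 1 or 2 calling bins of 200 bp. Among them were chr5:120135601-120136000, chr5:120136201-120136600 and chr5:120137001-120137400 of 400 bp each. The median island of the window was 400 bp wide, compared with 800 bp over the whole list. Leaving out regions of 400 bp or less would keep 2 of the 9 islands and 3.6 kb of H3K4me3.

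Beyond the last island, the remaining 197.2 kb of the window held 164.4 kb of H3K27me3 (83.4%) and no H3K4me3. The main element there was chr5:120213001-120298600, an 85.6-kb region that was part of the rule. It ranked 10 in width among all H3K27me3 regions and 1 among the 11704 without an island. Of 318 H3K27me3 regions over 20 kb, 15.7% had no island. The nearest islands lay 50.2 kb below it and 132.8 kb above it. A region of 20.0 kb, chr5:120189201-120209200, lay below it, and regions of 13.6 kb (chr5:120299201-120312800), 6.8 kb (chr5:120314801-120321600), 6.6 kb (chr5:120179201-120185800) and 6.2 kb (chr5:120355601-120361800) completed those of at least 5 kb. All of these lacked H3K4me3, as did 36.2% of the 3336 H3K27me3 regions of that width.

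The next widest H3K27me3 regions without an island were all on chromosome 5 as well. They were chr5:112848201-112927200 (79.0 kb, 6.6 kb narrower), chr5:149258601-149305000 (46.4 kb) and chr5:111951001-111996800 (45.8 kb). Width alone was the measure of likeness here, taken over the 11704 regions.

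The H3K27me3 regions of the Tbx3-Tbx5 window were separated by 13 short gaps, with a median of 2000 bp and a range of 600 to 7200 bp, none of which held H3K4me3. Region boundaries therefore depend on how gaps are treated. With regions less than 1 kb apart joined, the 85.6-kb region became 99.8 kb and still held no island. With regions less than 5 kb apart joined, a setting chosen after seeing the data, it merged with the island-bearing region below it into chr5:120036801-120335000, which was 298.2 kb wide, held 10 islands and ranked 3 in width among 11193 joined regions. The separation of an island-bearing and an island-free region thus depends on how far apart regions are joined.

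From the last island to the next one above, chr5:120162801-120431400, no H3K4me3 was called for 268.6 kb, of which H3K27me3 covered 208.0 kb (77.4%). The median stretch between neighbouring islands in the genome was 13.2 kb, and 3.71% of the 47906 stretches were at least as long. Among those 1775 long stretches the median H3K27me3 coverage was 0%, and the second highest was 71.0%. The stretch at Tbx3-Tbx5 was the most covered of them. It was taken around the wide island-free H3K27me3 region that the rule names, so this rank is a description and not a test.

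**Figure D3:**
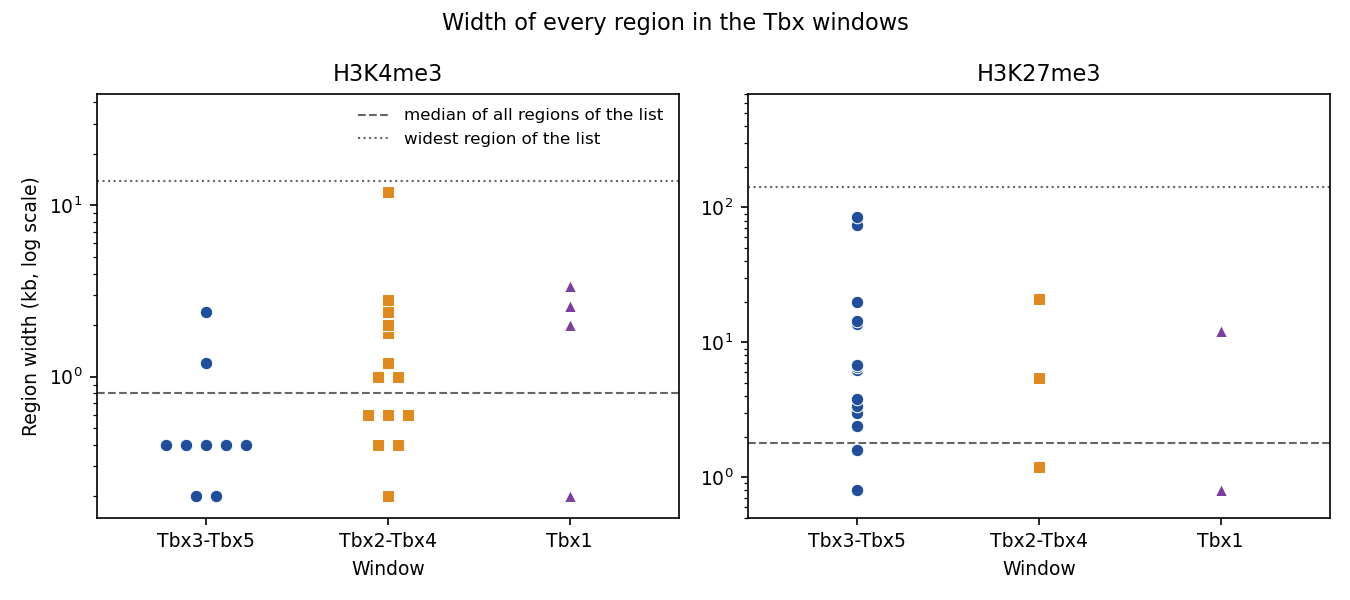
Width in kb (log axis) of every region in each window, 1 point per region, for H3K4me3 (left) and H3K27me3 (right), with the median and the widest region of the whole list as dashed and dotted lines. The Tbx3-Tbx5 window has 7 of 9 islands below the 800-bp median and the H3K27me3 regions of 73.8 and 85.6 kb, while the widest island, 12.0 kb, is in the Tbx2-Tbx4 window.

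The Tbx2-Tbx4 window held 14 islands in 3 runs (islands less than 10 kb apart) and 3 H3K27me3 regions. The first run, chr11:85642201-85662800, had 9 islands over 20.6 kb, and 8 of them overlapped the 20.8-kb H3K27me3 region chr11:85637001-85657800. Its wider islands were chr11:85656401-85659200 (2800 bp), chr11:85645201-85647600 (2400 bp), chr11:85642201-85644200 (2000 bp) and chr11:85650401-85652200 (1800 bp). The island of 2800 bp crossed the upper end of the H3K27me3 region, with 50.0% of its length inside. It filled the 1400-bp gap up to the next H3K27me3 region, chr11:85659201-85660400, which was 1.2 kb wide and shared no base with an island.

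H3K4me3 covered 47.1% of this 20.8-kb region, against 7.86% of the 73.8-kb region at Tbx3-Tbx5, although each held 8 islands. In the whole list 24 H3K27me3 regions (0.128%) held at least 8 islands, with a median width of 53.0 kb. The Tbx2-Tbx4 region was the 4th narrowest of these 24 and ranked 2 in the share covered by H3K4me3, while the Tbx3-Tbx5 region ranked 22 in that share. Among all 3336 H3K27me3 regions of at least 5 kb the Tbx3-Tbx5 region was near the middle, as 49.3% had a smaller covered share. For the Tbx2-Tbx4 region that value was 96.2%. The 20.8-kb and 73.8-kb regions held the same number of islands, which covered 9800 bp and 5800 bp of them. Their covered shares thus differed through the width of the regions as well as through the length covered.

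The second run of the Tbx2-Tbx4 window, chr11:85689201-85710400, had no H3K27me3 at all. It consisted of a 1200-bp island and of chr11:85698401-85710400, a single H3K4me3 region of 12.0 kb. In width this region shared rank 7 of 47928 with 1 other. The nearest H3K27me3 lay 38.0 kb below it and 25.0 kb above it. Of the 18 H3K4me3 regions of at least 10 kb, 1 (5.56%) overlapped H3K27me3. This single region made up 12.0 of the 16.0 kb of H3K4me3 without H3K27me3 in the window, whereas the Tbx3-Tbx5 window had none.

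The third run, chr11:85731201-85740400, returned to both marks. Its islands of 600 bp, chr11:85738601-85739200 and chr11:85739801-85740400, lay inside the 5.4-kb H3K27me3 region chr11:85735401-85740800. The third island, of 1000 bp, ended 3.2 kb below that region. Between the 20.8-kb domain with its 1.2-kb neighbour and the 5.4-kb region, 75.0 kb had no H3K27me3. In the Tbx3-Tbx5 window the longest such gap was 7.2 kb.

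The Tbx1 window carried a compact domain with both marks. The H3K27me3 region chr16:18579601-18591800 was 12.2 kb wide and overlapped all 4 islands, which measured 3400 bp (chr16:18586001-18589400), 2600 bp (chr16:18589801-18592400), 2000 bp (chr16:18581401-18583400) and 200 bp (chr16:18585601-18585800). The island of 2600 bp ran 0.6 kb past the upper end of the H3K27me3 region, with 76.9% of its length inside. H3K4me3 covered 62.3% of the domain, and 98.9% of the 3336 H3K27me3 regions of at least 5 kb had a smaller covered share. A second H3K27me3 region, chr16:18578201-18579000, was 800 bp wide and had no island. In its share of shared sequence the Tbx1 domain stood nearer to the 20.8-kb domain of the Tbx2-Tbx4 window than to either wide region of the Tbx3-Tbx5 window.

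**Figure D4:**
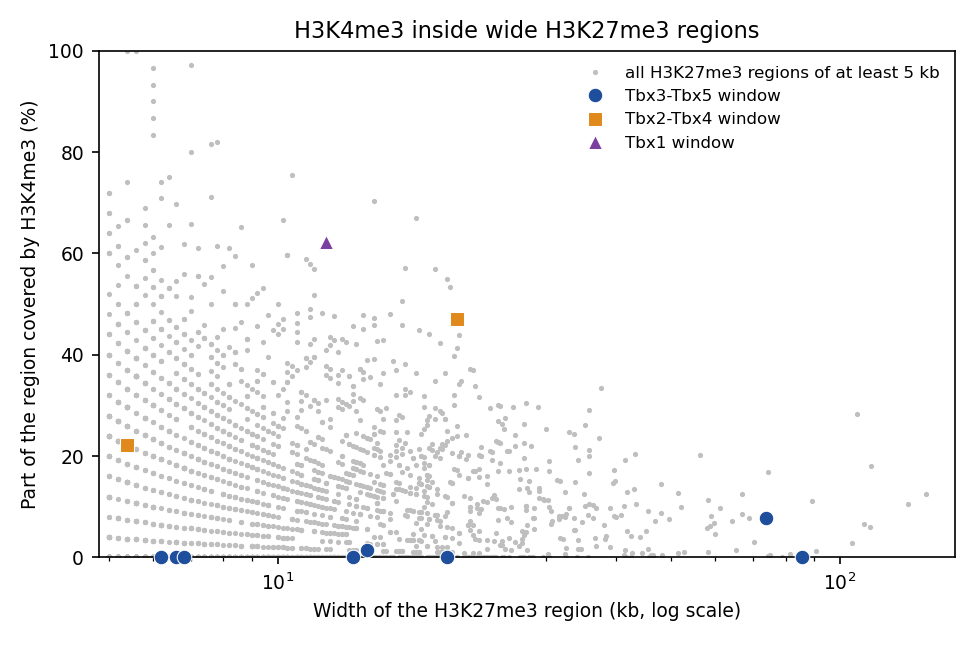
Part of each H3K27me3 region covered by H3K4me3 (percent) against its width (kb, log axis), for all 3336 H3K27me3 regions of at least 5 kb (grey) and for the members. The 12.2-kb Tbx1 domain (62.3%) and the 20.8-kb Tbx2-Tbx4 domain (47.1%) lie high among the grey points of similar width. Some grey regions near the width of the Tbx2-Tbx4 domain lie above it. The Tbx3-Tbx5 regions lie at 7.86% or below.

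The surroundings of the windows differed as well. Flanks of the same length as the window carried H3K27me3 over 60.3% below and 43.9% above the Tbx3-Tbx5 window, with 0.0741% and 0.963% H3K4me3. The flanks of the Tbx2-Tbx4 window carried 0% H3K27me3 below and 2.31% above, with 1.54% and 0.923% H3K4me3. The Tbx1 window had neither mark in the flank below, and 28.0% H3K27me3 and 30.7% H3K4me3 in the flank above. H3K27me3 at Tbx2-Tbx4 thus ended near the window, and the nearest H3K27me3 region below it lay 847.6 kb from the window edge. The nearest one above, chr11:85750801-85752000, lay 0.8 kb outside the edge and was 1.2 kb wide. At Tbx1 the nearest H3K27me3 outside lay 375.6 kb below and 5.2 kb above, and at Tbx3-Tbx5 8.4 kb below and 4.8 kb above. The last member inside the upper edge of the Tbx3-Tbx5 window, of 6.2 kb, extended 1.8 kb beyond it.

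**Figure D5:**
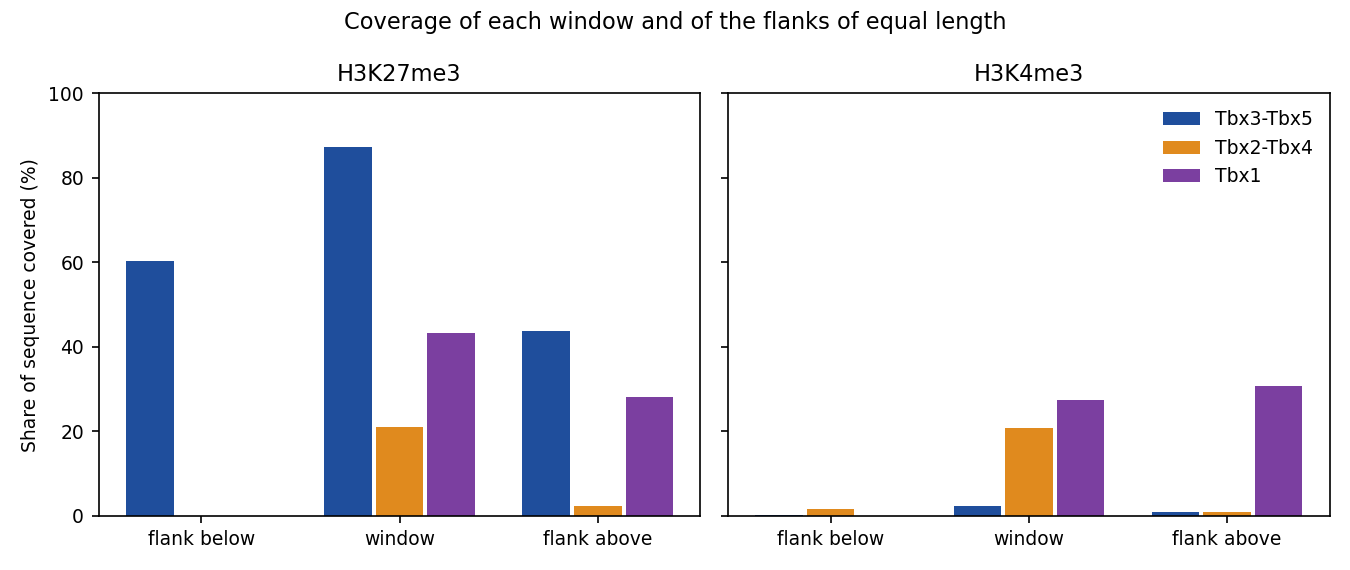
Share of sequence covered by H3K27me3 (left) and H3K4me3 (right), in percent, in each window and in flanks of the same length below and above it. H3K27me3 in the Tbx3-Tbx5 flanks stays at 60.3% and 43.9%, while at Tbx2-Tbx4 it drops to 0 and 2.31%.

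The Tbx3-Tbx5 window lies in a part of chromosome 5 that is rich in H3K27me3 over 11 Mb, from 111 to 122 Mb. The limits of this stretch were set by extending from the window while each next 1-Mb tile was above the 95th percentile of autosomal tiles. H3K27me3 covered 35.8% of that stretch and 87.3% of the window, and H3K4me3 covered 3.93% and 2.22%. The window held 5.99% of the H3K27me3 length of the stretch. The island-free regions of 79.0 and 45.8 kb named above lie in the same stretch, and that of 46.4 kb lies outside it. Of 9142 autosomal tiles of 270 kb, 1 held as much H3K27me3 as the window (255.2 kb), and it lay in the same stretch, at chr5:112050001-112320000. The next tiles fell little short of the 235.8 kb of the window. They were chr5:118800001-119070000 with 231.8 kb and, on another chromosome, chr4:129600001-129870000 with 229.6 kb. For H3K4me3, 30.9% of the tiles held as much as the window.

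The other windows stood out among tiles of their own length for H3K4me3. Of 19001 tiles of 130 kb, 0.268% held as much H3K4me3 as the Tbx2-Tbx4 window and 3.27% as much H3K27me3. Of 82364 tiles of 30 kb, 0.471% held as much H3K4me3 as the Tbx1 window and 1.80% as much H3K27me3. The windows were set around their regions and the tiles were not, which favours the windows in these shares.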

How the data were processed

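The submitters' processing notes name Bowtie 0.12.7 and mm9. For each mark the authors deposited a list of contiguous ChromHMM regions (a hidden Markov model segmentation), per the file names, with chromosome, start, end and name and no counts or scores. All positions lie on a 200-bp grid. Not given in the sources used here are the ChromHMM settings, how the input entered and how replicates were merged.

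Regions overlapping a window by at least 1 bp were counted, lengths were clipped to the window, and widths are of whole regions. Coordinates count from 1. Tiles ran from each autosome's start to its last region. Named were H3K27me3 regions of at least 5 kb, the widest islands (up to 5 per window; ties and a few narrower ones were named after their values were seen), edge regions and the 3 island-free regions nearest in width. The windows and lists were chosen with earlier results of these data known. Interval arithmetic was tested on simulated data. Software was matplotlib 3.10.9, scipy 1.17.1, pandas 2.3.3, numpy 2.4.6 and Python 3.11.15.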

Additional observations from a re-analysis of the deposited data

How the results depend on the processing

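For 22 results, 122 values were computed under alternatives: only regions wider than 400 bp, regions less than 1 kb or 5 kb apart joined, an overlap minimum of 400 bp, an overlap minimum of 50% of the shorter region, windows widened by 50 kb, and only regions wholly inside the window. Joining under 5 kb was added after seeing the data. Of these, 97 stayed alike (counts, lengths and the ratio within 1.5 times, percentages inside the 95% Wilson interval of the reported value) and 25 moved. The Wilson intervals rest on few regions per window, taken as independent, and are wide. The share of Tbx2-Tbx4 islands on H3K27me3, for example, counted as alike at 50.0% (joined under 1 kb) against 71.4%. For percentages the tally is therefore no measure of stability. The H3K27me3 share of the Tbx3-Tbx5 window stayed 2.85 to 6.63 times that of the Tbx2-Tbx4 window. The highest value, 6.63, came from widened windows. These held 305.2 kb of H3K27me3 in place of 235.8 kb at Tbx3-Tbx5, and 28.6 kb in place of 27.4 kb at Tbx2-Tbx4. The widening lowered the share in both, and more at Tbx2-Tbx4, whose flanks held little H3K27me3. The lowest, 2.85, leaves out the regions of 73.8 and 6.2 kb that cross the window edges; without them the length with both marks there was 0.2 kb. The share of Tbx2-Tbx4 islands on H3K27me3 was 40.0% (2 of 5) with regions joined under 5 kb. The 10 overlapping islands lie close together and merged into 2, while most of the others stayed separate. Among the other values, the number of islands was 2 in place of 9 at Tbx3-Tbx5 among regions wider than 400 bp, and 8 in place of 14 at Tbx2-Tbx4 when joined under 1 kb. No paired analysis was possible because each mark has 1 list, which also leaves no replicate to drop. The lists carry no counts, so how far depth limited the calls cannot be given.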
